A study of Rattus norvegicus with 12 samples.

Results

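The genes described are 10 members of the hypoxia and glycolysis programme, chosen by gene symbol from the array's platform annotation: Ddit4, Bhlhe40, Mxi1 and Ndrg1, the growth factor gene Vegfa, the glucose transporter gene Slc2a1, and the glycolytic genes Hk2, Pfkfb3, Pgk1 and Ldha. All 10 were on the array, on 11 probes, among 9653 named genes in all. Slc2a1 had 2 probes, which were averaged, and each other gene had 1.

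The kidneys came from inbred male Lewis rats, and both donors and recipients were of this strain, so that every graft was an isograft. There were 4 groups of 3 arrays, and nothing states that the arrays of a group came from separate animals. Grafts of brain dead donors were taken 1 h after orthotopic transplantation of the left kidney, with 30 min of operative ischemia and removal of the recipient's own right kidney. Grafts of living donors were taken at the same time after the same operation. Kidneys of brain dead donors at 0 h were taken before transplantation, 6 h after brain death had been induced by a gradual rise of intracranial pressure, under mechanical ventilation. For the brain dead donor grafts, too, 6 h after induction of brain death is recorded. Normal kidneys had neither brain death nor transplantation. No group was ventilated without brain death or operated on without transplantation, so these cannot be told apart from brain death and from transplantation. No age of the rats is stated.

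Each value is the log2 ratio of 1 kidney sample over a pool of normal kidney RNA on the same 2-colour array, so it gives a gene's level relative to that pool and cannot be compared between genes. The dyes were the same way round on all arrays. A gene can therefore stand off 0 in normal kidneys too, as Ddit4 (0.65), Vegfa (0.47) and Ldha (0.47) did on average, and differences between groups are the measure used. Whole kidney was profiled, so more cells of a type and more RNA per cell cannot be told apart. Ratios give no absolute level, so the labelled tissue could not be checked against its markers as present or absent. Markers of the proximal tubule, of the loop of Henle and distal nephron, and of podocytes averaged between -0.16 and 0.26 per array in normal kidneys and in brain dead donor kidneys at 0 h. Replicate 21 of the brain dead donor grafts stood apart from its group (mean correlation of 0.851 with the other 2 over all features). Replicates 23 and 27 had mean correlations of 0.909 and 0.907 with brain dead donor kidneys at 0 h, and of 0.886 and 0.884 with their own group. The own-group means include replicate 21, and replicates 23 and 27 of these grafts correlated with each other at 0.918. Called differences of members in these grafts, and those of Bhlhe40, Ndrg1, Vegfa and Ldha between grafts, are also given without replicate 21.

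When oxygen is plentiful, prolyl hydroxylases of the Egln family mark the alpha subunits of the hypoxia-inducible factors (Hif1a and Epas1) for destruction through Vhl. When oxygen is short the subunits persist, pair with Arnt and bind DNA at the letters ACGTG or GCGTG near their target genes, which include glucose transporters, most enzymes of glycolysis and angiogenic factors. Kidney tubules spend much oxygen on salt transport, and proximal tubules rely on oxidative metabolism rather than on glycolysis. Several of the genes here also answer to other signals, Ddit4 to glucocorticoids and the integrated stress response and Bhlhe40 to cytokines, growth factors and the circadian clock.

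The members followed different patterns. Ddit4 rose 1 h after transplantation with either kind of donor and did not pass the test between donors. Bhlhe40 and Ndrg1 rose, and Mxi1 fell, in kidneys of brain dead donors before transplantation, and Mxi1 was also lower in brain dead than in living donor grafts. Living donor grafts also lay above normal kidneys in Bhlhe40 without overlap, but this did not pass. The calls of Ndrg1 and Mxi1, and that of Ddit4 in brain dead donor grafts, were lost in some fits with an array left out. Vegfa, Slc2a1 and the 4 glycolytic genes did not pass in any comparison.

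Ddit4 encodes REDD1, a stress-induced brake on the growth kinase complex mTORC1. Its log2 ratios were 1.88, 1.78 and 1.65 in the brain dead donor grafts (replicates 21, 23 and 27), against 0.77, 0.89 and 0.59 in brain dead donor kidneys at 0 h (replicates 1, 2 and 3). They were 1.79, 1.64 and 2.07 in the living donor grafts (replicates 22, 24 and 25), against 0.66, 0.62 and 0.65 in normal kidneys (replicates 1, 2 and 3). Every graft lay above every kidney at 0 h, while the grafts of both donors overlapped and the kidneys at 0 h overlapped. In living donor grafts Ddit4 rose 2.28-fold over normal kidneys (log2 1.19 ± 0.11, SE, n = 3 arrays per group, limma adjusted p = 0.00137), the 13th smallest p among 18478 features. In brain dead donor grafts it rose 2.03-fold over brain dead donor kidneys at 0 h (log2 1.02 ± 0.11, adjusted p = 0.0300), with the 2nd smallest p of that comparison.

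Between donors, the Ddit4 difference was 0.11 at 0 h (95% interval -0.14 to 0.35) for brain dead donor against normal kidneys. At 1 h it was -0.06 (-0.31 to 0.19) for brain dead against living donor grafts. The interaction of donor and time, which asks whether the change after transplantation differed between donors, was -0.17 (-0.52 to 0.18). None of these passed (adjusted p = 0.755, 0.799 and 0.947), and the intervals at 0 h and 1 h reach 0.35 in the one direction and -0.31 in the other. The rise in living donor grafts passed with each of the 12 arrays left out in turn (log2 1.07 to 1.28, highest adjusted p = 0.0122). The rise in brain dead donor grafts lost its call when any of these arrays was left out: brain dead donor kidney replicate 2 or 3 (1.09 and 0.94, adjusted p = 0.145 and 0.103), normal kidney replicate 1 or 3 (1.02 each, adjusted p = 0.0566 and 0.0569) or graft replicate 21 (0.96, adjusted p = 0.0735). Quantile normalization brought this rise to 0.77 (adjusted p = 0.226), and a fit of these groups alone gave 1.02 with adjusted p = 0.206.

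Beside Ddit4, markers of the proximal tubule had lower array means after transplantation, without overlap. Their mean over 5 measured genes of 7 listed lay between -0.44 and -0.22 per array in brain dead donor grafts, against -0.13 to 0.15 in brain dead donor kidneys at 0 h, and between -0.29 and -0.16 in living donor grafts, against -0.11 to 0.06 in normal kidneys. No marker of this list passed the test, and the part of this shift in the Ddit4 result was not tested.

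**Figure D1:**
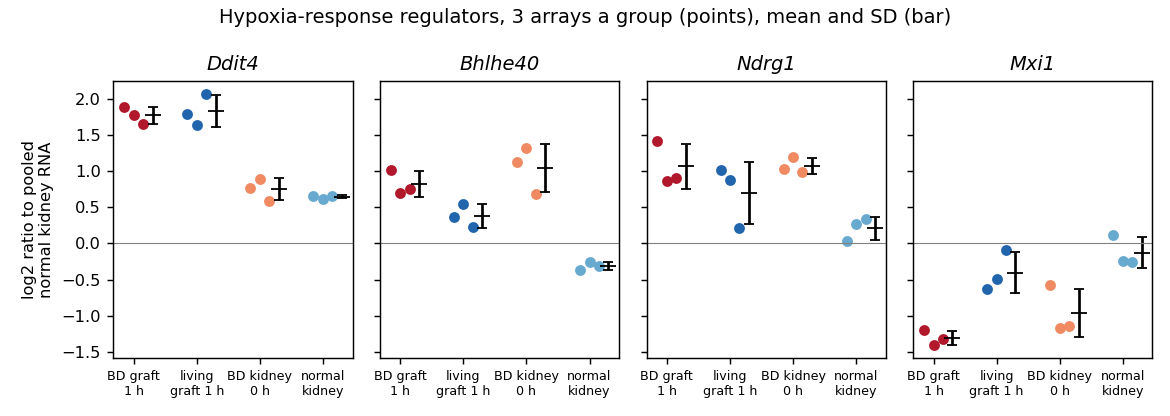
Log2 ratio to pooled normal kidney RNA of Ddit4, Bhlhe40, Ndrg1 and Mxi1 in each of 12 arrays (points), with the mean and SD of the 3 arrays of a group (bars to the right), for brain dead donor (BD) grafts and living donor grafts at 1 h, brain dead donor kidneys at 0 h and normal kidneys. Ddit4 separates grafts (1.64 and above) from kidneys at 0 h (0.89 and below), while Bhlhe40 and Ndrg1 are lowest on average, and Mxi1 highest, in normal kidneys.

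Bhlhe40 (also called DEC1) is a basic helix-loop-helix repressor that acts in the hypoxia response and in the circadian clock. Its log2 ratios were 1.12, 1.32 and 0.68 in brain dead donor kidneys at 0 h, against -0.37, -0.26 and -0.31 in normal kidneys, with no overlap. It rose 2.56-fold (log2 1.36 ± 0.15, adjusted p = 0.00304), ranked 32nd of 18478 features by p, and passed with each array left out in turn (1.22 to 1.54, highest adjusted p = 0.0179). After transplantation it measured 1.02, 0.69 and 0.75 in brain dead donor grafts, against 0.36, 0.55 and 0.23 in living donor grafts, again with no overlap. That difference of 0.44 ± 0.15 did not pass (adjusted p = 0.129), and without replicate 21 it was 0.34 (adjusted p = 0.316).

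Living donor grafts lay above normal kidneys in Bhlhe40 without overlap (0.70 ± 0.15), and this too did not pass (adjusted p = 0.0923). It passed after quantile normalization (0.77, adjusted p = 0.0361), in a fit of these groups alone (0.70, adjusted p = 0.0469) and with brain dead donor kidney replicate 3 left out (0.70, adjusted p = 0.0310). Brain dead donor grafts differed from brain dead donor kidneys at 0 h by -0.22 ± 0.15 (adjusted p = 0.565). The order of the group means was thus brain dead donor kidneys at 0 h (1.04 ± 0.33, SD, n = 3), brain dead donor grafts (0.82 ± 0.17), living donor grafts (0.38 ± 0.16) and normal kidneys (-0.32 ± 0.05), and only the ranges of the first pair overlapped. The interaction was -0.92 ± 0.22, the 58th smallest p of all features, and did not pass (adjusted p = 0.536). No feature passed for the interaction in limma after adjustment, against 5.22% of 18478 features at an unadjusted p under 0.05, and array weights gave 3 features, none of them a member.

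Ndrg1 encodes a cytoplasmic protein of differentiation and stress that is induced strongly by low oxygen in many cells. It measured 1.03, 1.20 and 0.99 in brain dead donor kidneys at 0 h, against 0.03, 0.27 and 0.33 in normal kidneys, with no overlap. The rise was 1.82-fold (log2 0.87 ± 0.21, adjusted p = 0.0474). It lay close to the threshold and kept its call in 2 of the 12 fits with 1 array left out, those that left out graft 21 of a brain dead donor or graft 25 of a living donor. In the other 10 the rise was 0.78 to 0.92 with a highest adjusted p of 0.169.

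At 1 h Ndrg1 measured 1.42, 0.86 and 0.91 in brain dead donor grafts, against 1.01, 0.87 and 0.21 in living donor grafts, and these groups overlapped (difference 0.37 ± 0.21, adjusted p = 0.353). Without replicate 21 that difference was 0.19 (adjusted p = 0.698). Living donor grafts differed from normal kidneys by 0.49 ± 0.21 (adjusted p = 0.443), with replicate 25 of the grafts inside the range of the normal kidneys. Brain dead donor grafts stood at the same mean as brain dead donor kidneys at 0 h within 0.01 log2 units (95% interval of the difference -0.48 to 0.46).

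Mxi1 encodes a repressor that competes with Myc for their shared partner Max. It measured -0.58, -1.17 and -1.14 in brain dead donor kidneys at 0 h, against 0.12, -0.25 and -0.26 in normal kidneys, with no overlap. The log2 difference was -0.83 ± 0.18, a fall to 0.561 of normal kidneys (adjusted p = 0.0346). In brain dead donor grafts it measured -1.20, -1.40 and -1.32, against -0.63, -0.49 and -0.09 in living donor grafts, again with no overlap. The log2 difference was -0.90 ± 0.18, a level of 0.534 of that with living donors (adjusted p = 0.0201).

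The interaction of donor and time for Mxi1 was -0.07 (95% interval -0.65 to 0.51, adjusted p = 0.994). Living donor grafts differed from normal kidneys by -0.27 ± 0.18 (adjusted p = 0.657), and brain dead donor grafts from brain dead donor kidneys at 0 h by -0.34 ± 0.18 (adjusted p = 0.452), the second of these without overlap. The call at 0 h was lost when brain dead donor kidney replicate 2 or 3 was left out (-0.73 and -0.75, adjusted p = 0.138 and 0.120). It was lost too when normal kidney replicate 1, 2 or 3 (-0.71, -0.90 and -0.90, adjusted p = 0.119, 0.0839 and 0.0719) or living donor graft replicate 24 (-0.83, adjusted p = 0.0546) was left out, after quantile normalization (-0.82, adjusted p = 0.0629) and in a fit of these groups alone (-0.83, adjusted p = 0.0966). The call at 1 h was lost when brain dead donor graft replicate 23 or 27 (-0.86 and -0.90, adjusted p = 0.0555 and 0.0581) or living donor graft replicate 25 (-0.75, adjusted p = 0.0674) was left out, and after quantile normalization (-0.65, adjusted p = 0.181). Without replicate 21 the difference at 1 h was -0.96 (adjusted p = 0.0417).

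Markers of neutrophils had higher array means with brain dead donors, without overlap at 0 h and with overlap between grafts. The mean over 6 measured genes of 7 listed lay between 0.73 and 1.39 per array in brain dead donor kidneys at 0 h, against -0.24 to 0.05 in normal kidneys, and between 0.02 and 0.83 in brain dead donor grafts, against -0.14 to 0.05 in living donor grafts. Of these genes S100a9 rose at 0 h (log2 3.47 ± 0.50, adjusted p = 0.00729) and the other 5 did not pass. Between grafts 4 of the 6 lay above 0 and none passed. The list median there was 0.10, against 0.01 over all features, with differences from -0.11 to 1.78. S100a9 averaged 2.12 ± 0.97 in brain dead donor grafts and 0.34 ± 0.35 in living donor grafts (SD). The part of the neutrophil markers in the Bhlhe40, Ndrg1 and Mxi1 results was not tested. The endothelial markers, 6 measured of 7 listed, lay between -0.11 and -0.05 in brain dead donor kidneys at 0 h, against -0.08 to 0.14 in normal kidneys, and between -0.27 and -0.04 in brain dead donor grafts, against 0.04 to 0.14 in living donor grafts. Against the direction of these means at 0 h, the 1 endothelial gene that passed, Pecam1, rose there (log2 0.29 ± 0.06, adjusted p = 0.0263). Pecam1 is the mean of 3 probes with differences of 0.50, 0.30 and 0.06, and its call was lost when brain dead donor kidney replicate 2 or 3 or normal kidney replicate 2 or 3 was left out (highest adjusted p = 0.0933). A probe of Cdh5, which did not pass as a mean of its probes, also rose by itself at 0 h (0.50 ± 0.11, limma adjusted p = 0.0348). The other Cdh5 probes were at 0.04 ± 0.05 and 0.02 ± 0.06. Between grafts 3 of the 6 endothelial markers lay above 0 and none passed. The podocyte markers, 3 measured of 5 listed, lay between -0.30 and -0.07 in brain dead donor grafts, against -0.08 to 0.01 in living donor grafts, and their part in the Mxi1 result between grafts was not tested. Of these Podxl, which coats the podocyte surface, was lower in brain dead donor grafts (-0.61 ± 0.14, adjusted p = 0.0346), a call lost in 9 of the 12 fits with an array left out (-0.74 to -0.44 over all 12, highest adjusted p = 0.114). In that comparison 2 of the 3 podocyte markers lay above 0, up to 0.10, with a list median of 0.06, so only Podxl was lower.

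Promoters of 8 of the 10 genes, all but Ndrg1 and Pgk1, were in the RefSeq-derived table (assembly GRCr8), which gives 250 bases before to 50 after a gene's start. The bases before the start are shown for the 3 called members that the table holds, and for Ldha, a textbook target of the hypoxia-inducible factors that passed in no comparison. Capitals mark every ACGTG or GCGTG on either strand (CACGT or CACGC when read on the strand shown). The windows are chr20:28437038-28437287, minus strand, for Ddit4, chr4:143174200-143174449, plus strand, for Bhlhe40, chr1:262348392-262348641, plus strand, for Mxi1, and chr1:106507842-106508091, plus strand, for Ldha.
Ddit4: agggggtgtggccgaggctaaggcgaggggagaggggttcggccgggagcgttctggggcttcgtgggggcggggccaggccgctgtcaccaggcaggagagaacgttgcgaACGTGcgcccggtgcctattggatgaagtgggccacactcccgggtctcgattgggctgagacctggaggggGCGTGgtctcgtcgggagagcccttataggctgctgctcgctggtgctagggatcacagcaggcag
Bhlhe40: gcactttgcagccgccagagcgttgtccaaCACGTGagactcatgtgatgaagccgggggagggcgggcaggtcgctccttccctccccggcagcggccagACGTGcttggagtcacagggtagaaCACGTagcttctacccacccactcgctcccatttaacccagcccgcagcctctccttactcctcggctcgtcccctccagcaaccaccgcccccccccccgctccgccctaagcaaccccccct
Mxi1: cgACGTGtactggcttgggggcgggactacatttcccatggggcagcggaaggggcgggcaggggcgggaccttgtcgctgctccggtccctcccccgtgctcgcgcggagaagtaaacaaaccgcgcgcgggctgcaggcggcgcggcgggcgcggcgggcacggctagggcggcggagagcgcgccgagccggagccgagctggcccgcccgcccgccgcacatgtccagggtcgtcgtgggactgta
Ldha: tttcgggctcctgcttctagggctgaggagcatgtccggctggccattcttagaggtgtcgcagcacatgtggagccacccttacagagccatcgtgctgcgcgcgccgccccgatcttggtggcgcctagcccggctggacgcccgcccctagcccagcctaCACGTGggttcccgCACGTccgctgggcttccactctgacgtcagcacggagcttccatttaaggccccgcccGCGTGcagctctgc

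Counted over both strands, with CACGTG counted once for each strand, the letters occurred 2 times in the Ddit4 window, starting 138 and 66 bases before the start, and 4 times in that of Bhlhe40, between 220 and 124 bases before it. They occurred 1 time in that of Mxi1, 248 bases before the start, and 4 times in that of Ldha, between 87 and 14 bases before it. CACGTG, the E-box that Bhlhe40 and the Myc and Max family bind and that holds ACGTG on both strands, lay in the windows of Bhlhe40, Pfkfb3 and Ldha. Of all 33469 promoters, 36.7% held ACGTG or GCGTG in the 250 bases before the start, and 5.59% held CACGTG. These windows were rich in G and C (67.6% for Ddit4, 66.0% for Bhlhe40, 74.8% for Mxi1 and 66.4% for Ldha, against a median of 51.2% over all promoters). The letters were thus in the promoters of a gene that rose after transplantation, of genes that moved with brain death in either direction and of a gene that did not pass. Slc2a1 held 4 and Pfkfb3 2 such motifs, and the windows of Vegfa, of which the table gives 2, and of Hk2 held none, which says only that these letters are not in these windows.

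Vegfa encodes the main growth factor for blood vessels, made in the kidney chiefly by podocytes and tubules. It measured 0.51, 0.05 and -0.04 in brain dead donor grafts, against 0.68, 0.61 and 0.37 in living donor grafts. Replicate 21 lay inside the range of the living donor grafts, and replicates 23 and 27 lay below it. The difference of -0.38 ± 0.17 did not pass (adjusted p = 0.220), and without replicate 21 it was -0.55 ± 0.15 (adjusted p = 0.0762). Of the podocyte markers given above, only Podxl was also lower in these grafts, while 2 of 3 lay above 0. The part of these markers in the Vegfa difference was not tested. At 0 h Vegfa measured 0.45, 0.47 and 0.08 in brain dead donor kidneys, against 0.39, 0.35 and 0.68 in normal kidneys, with overlap and a difference of -0.14 (95% interval -0.51 to 0.23). Transplantation of a living donor kidney gave a difference from normal kidneys of 0.09 (-0.28 to 0.45), and brain dead donor grafts differed from brain dead donor kidneys at 0 h by -0.16 (-0.53 to 0.21).

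Slc2a1 encodes GLUT1, a glucose transporter of many cell types. It measured 0.38, 0.45 and 0.30 in brain dead donor grafts, against 0.18, 0.34 and -0.02 in living donor grafts. It measured 0.01, 0.16 and 0.16 in brain dead donor kidneys at 0 h, against -0.29, -0.01 and -0.11 in normal kidneys. The difference at 0 h was 0.24 ± 0.10 without overlap (adjusted p = 0.235), that between living donor grafts and normal kidneys 0.30 ± 0.10 (adjusted p = 0.292), and that between brain dead donor grafts and brain dead donor kidneys at 0 h 0.26 ± 0.10 without overlap (adjusted p = 0.320). At 1 h the donors differed by 0.21 ± 0.10 (adjusted p = 0.280). With array weights the difference at 0 h passed (0.28, adjusted p = 0.0380).

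The Slc2a1 probes disagreed in size. The probe annotated to the RefSeq transcript NM_138827 differed by 0.43 ± 0.14 between brain dead donor and normal kidneys at 0 h and by 0.58 ± 0.14 between living donor grafts and normal kidneys. The probe annotated to the expressed sequence tag CB545819 differed by 0.06 ± 0.10 and 0.02 ± 0.10 in the same comparisons. On the NM_138827 probe the 3 arrays of brain dead donor grafts were at 0.48, 0.84 and 0.60, against 0.09, 0.24 and 0.35 in brain dead donor kidneys at 0 h, without overlap, and that difference of 0.41 ± 0.14 did not pass either (adjusted p = 0.277). The averaged Slc2a1 values thus lie between a probe with larger differences and a probe whose 12 values lay between -0.22 and 0.28.

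Hk2, Pfkfb3 and Pgk1 hardly varied. Hk2 is the inducible hexokinase that traps glucose as glucose 6-phosphate, Pfkfb3 makes the activator of the committed step of glycolysis, and Pgk1 is the phosphoglycerate kinase that yields the first ATP of the pathway. Over all 12 arrays Hk2 lay between -0.18 and -0.01, Pfkfb3 between -0.18 and 0.02 and Pgk1 between -0.13 and 0.09. Their differences in the 4 group comparisons lay between -0.03 and 0.09, with 95% intervals from -0.16 at the lowest to 0.21 at the highest, which bound the changes these probes leave room for. Hk2 was without overlap at 1 h before rounding, at -0.10, -0.07 and -0.01 in brain dead donor grafts, against -0.16, -0.10 and -0.18 in living donor grafts (difference 0.09 ± 0.05, adjusted p = 0.359). Pgk1 was without overlap between living donor grafts, at 0.02, -0.04 and 0.02, and normal kidneys, at -0.08, -0.08 and -0.10 (difference 0.09 ± 0.06, adjusted p = 0.635).

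Ldha encodes the lactate dehydrogenase subunit that turns pyruvate into lactate. It measured 0.60, 0.77 and 1.13 in brain dead donor grafts, against 0.44, 0.80 and 0.57 in living donor grafts. At 0 h it measured 0.90, 0.54 and 0.63 in brain dead donor kidneys, against 0.38, 0.58 and 0.45 in normal kidneys. The groups overlapped in both comparisons, and the differences were 0.23 ± 0.15 at 1 h (95% interval -0.10 to 0.56, adjusted p = 0.412) and 0.22 ± 0.15 at 0 h (-0.11 to 0.55, adjusted p = 0.524). Without replicate 21 the difference at 1 h was 0.35 (adjusted p = 0.254).

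**Figure D2:**
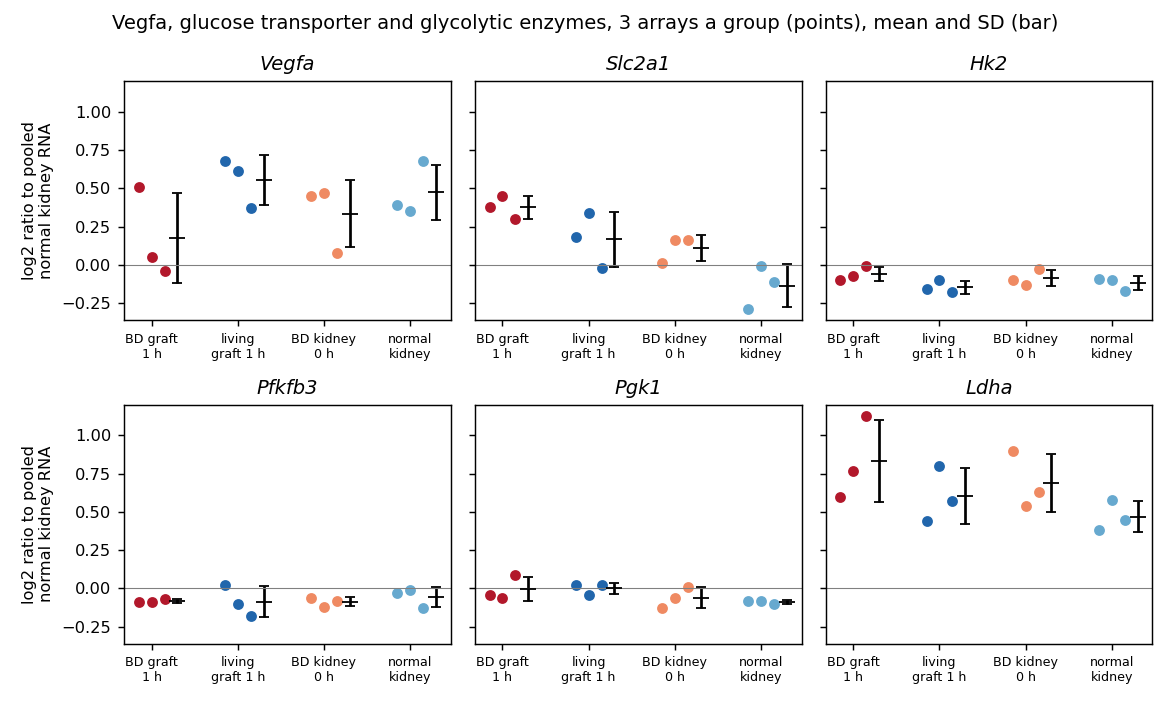
Log2 ratio to pooled normal kidney RNA of Vegfa, Slc2a1 (mean of 2 probes) and the glycolytic genes Hk2, Pfkfb3, Pgk1 and Ldha in each of 12 arrays (points), with the mean and SD of the 3 arrays of a group (bars to the right), for brain dead donor (BD) grafts, living donor grafts, brain dead donor kidneys at 0 h and normal kidneys. Hk2, Pfkfb3 and Pgk1 stay between -0.18 and 0.09 on every array, while Vegfa, Slc2a1 and Ldha vary more and overlap in most comparisons.

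Counted over the members, 2 of 10 were called higher and 1 lower at 0 h, with brain dead donors set against normal kidneys, where 4.65% of 18478 features were called in limma (2.27% higher and 2.39% lower). The median log2 difference of the 10 genes was 0.07, against 0 over all features. Between brain dead and living donor grafts 1 of 10 was called, lower, where 6.76% of features were called (2.02% higher and 4.74% lower), and the members' median was 0.04, against 0.01. Between living donor grafts and normal kidneys 1 of 10 was called, higher, against 0.731% of features (0.541% higher and 0.189% lower), with a median of 0.11, against -0.01. Between brain dead donor grafts and brain dead donor kidneys at 0 h 1 of 10 was called, higher, against 0.0541% of features (0.0379% higher and 0.0162% lower), with a median of 0.02, against 0. At an unadjusted p under 0.05 stood 4, 3, 4 and 2 of the 10 genes in these comparisons in turn, against 17.7%, 21%, 10.9% and 13.1% of all features. Replicates did not overlap for 4, 3, 3 and 3 of them, against 23.9%, 25.8%, 18.5% and 18.8% of all features. The 0 h comparison shares its normal kidneys with that of living donor grafts, and the comparison of grafts shares arrays with each of those made over time.

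**Figure D3:**
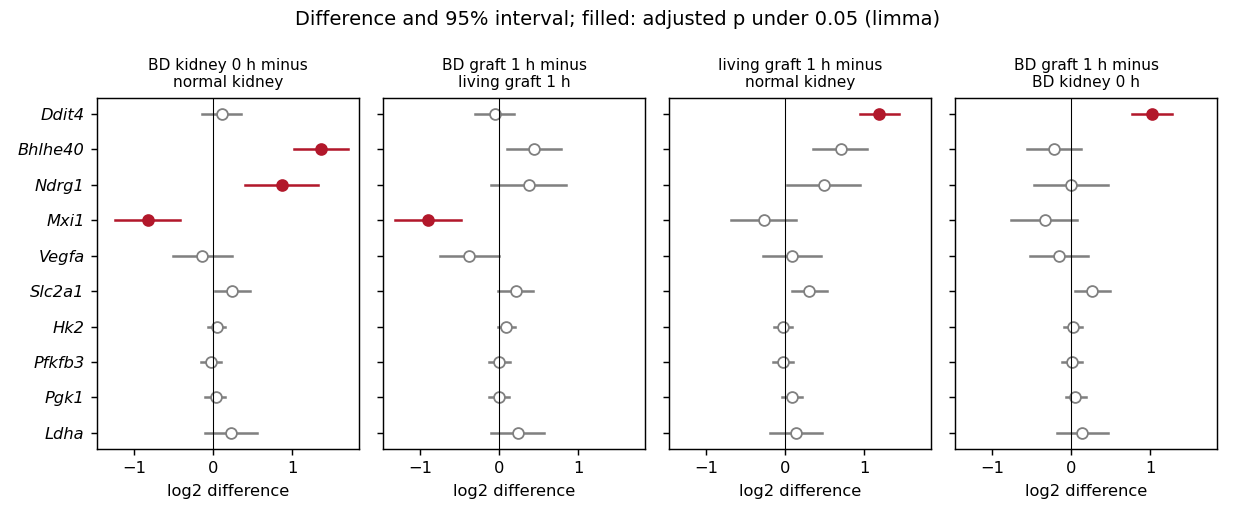
Log2 difference (point) and 95% interval (line) of each of the 10 genes in 4 group comparisons, named above each panel, from a limma fit of all 12 arrays; filled points have an adjusted p under 0.05 over 18478 features. Ddit4 passes in both panels on transplantation, Mxi1 in both panels between donors, and Bhlhe40 and Ndrg1 in the 0 h panel, while Vegfa and the genes listed under it have open points throughout.

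Genes with the most similar course over the 12 arrays were looked up for the called members among 9639 other named genes, by Pearson correlation and as a description. All arrays share the pooled reference and fall into 4 groups, which all of these correlations have in common. For Ddit4 they were Ccn1, a matrix-associated signalling protein (r = 0.957), the immediate early transcription factor Fos (0.955) and Rgs2, a regulator of G-protein signalling (0.952). For Bhlhe40 they were the inhibitor of apoptosis Birc3 (0.969), the tubulin Tubb6 (0.967) and the retinoic acid receptor Rarg (0.956). For Ndrg1 they were the matrix protease Adamts9 (0.944), the adaptor of interleukin 17 signalling Traf3ip2 (0.930) and the kinase Map3k2 (0.912). For Mxi1 they were the splicing protein Snrnp27 (0.981), the mitochondrial transcription factor Tefm (0.971) and the mismatch repair protein Mlh3 (0.969). Among the members Bhlhe40 and Ndrg1 correlated at 0.89, and Mxi1 at -0.77 with Bhlhe40, -0.82 with Ndrg1 and -0.82 with Slc2a1.

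Further genes that low oxygen can induce were read from a list of 27, of which 21 were measured. Which signal moved them was not tested. At 0 h 4 rose and none fell in brain dead donor kidneys, where 2.27% of all features were called higher and 2.39% lower. The list median was 0.28, against 0 over all features. In limma 9 of 21 had an unadjusted p under 0.05, against 17.7% of all features. Igfbp1, which binds insulin-like growth factors, was 4.69-fold higher (log2 2.23 ± 0.25, adjusted p = 0.00274) and Hmox1, heme oxygenase 1, 4.60-fold higher (2.20 ± 0.28, adjusted p = 0.00458). Hmox1 is the mean of 2 probes annotated to the same transcript, which differed in size, at 3.08 ± 0.37 and 1.32 ± 0.21 at 0 h (adjusted p = 0.00398 and 0.0108) and at 3.68 ± 0.37 and 2.05 ± 0.21 between grafts (adjusted p = 0.00156 each). Adm, the vasodilator adrenomedullin, and Edn1, the vasoconstrictor endothelin 1, rose 1.84-fold (0.88 ± 0.14, adjusted p = 0.0110) and 1.67-fold (0.74 ± 0.17, adjusted p = 0.0393). Between grafts, Hmox1 (2.86 ± 0.28) and Igfbp1 (1.67 ± 0.25) were higher with brain dead donors, where 2.02% of all features were called higher. The list median was 0.16, against 0.01 over all features. A probe of Higd1a, which did not pass as a mean of its probes, was higher by itself between grafts (0.41 ± 0.10, limma adjusted p = 0.0454). The other Higd1a probe was at 0.11 ± 0.08. Between living donor grafts and normal kidneys Edn1 (1.29 ± 0.17, adjusted p = 0.0105) and Adm (0.84 ± 0.14, adjusted p = 0.0301) rose, where 0.541% of all features were called higher. The list median was 0.14, against -0.01 over all features. Between brain dead donor grafts and brain dead donor kidneys at 0 h none passed in limma, and 5 of 21 had an unadjusted p under 0.05, against 13.1% of all features (list median 0.05).

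Adm had means of 0.99 ± 0.18 in brain dead donor grafts, 0.83 ± 0.15 in those of living donors and 0.87 ± 0.25 in brain dead donor kidneys at 0 h, against -0.01 ± 0.14 in normal kidneys (SD, n = 3 each). Those first 3 groups overlapped and all lay above normal kidneys. Igfbp1 averaged 2.72 ± 0.47 in brain dead donor grafts, 1.05 ± 0.37 in living donor grafts, 2.12 ± 0.26 in brain dead donor kidneys at 0 h and -0.11 ± 0.14 in normal kidneys. With single arrays left out, the calls of Hmox1 and Igfbp1 and that of Adm at 0 h held in all 12 fits. The call of Adm in living donor grafts was lost without any of the 3 normal kidney arrays or any of the 3 living donor graft arrays (0.76 to 0.92, highest adjusted p = 0.145). That of Edn1 in living donor grafts was lost when normal kidney replicate 3 or graft replicate 22 was left out (1.17 and 1.27, adjusted p = 0.0574 and 0.0662). The call of Edn1 at 0 h was lost when brain dead donor kidney replicate 2 or 3, any normal kidney, brain dead donor graft replicate 21, or living donor graft replicate 22 or 24 was left out (0.63 to 0.80, adjusted p up to 0.152).

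Of 13 regulators of the hypoxia-inducible factors 9 were measured. In limma none passed at 0 h (median 0.10) or in either comparison over time (medians -0.03 and -0.05). In each of these 1 of 9 had an unadjusted p under 0.05, against 17.7%, 10.9% and 13.1% of all features in turn. Between grafts 1 of 9 was called, higher, where 2.02% of all features were called higher. This was Egln2, an oxygen-sensing prolyl hydroxylase, at 1.25-fold with brain dead donors (0.32 ± 0.07, adjusted p = 0.0318). Its call was lost when any brain dead donor graft, or living donor graft replicate 22 or 25, was left out (0.27 to 0.33, highest adjusted p = 0.107).

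Of 28 further glycolysis genes 22 were measured. Pfkm, the muscle-type phosphofructokinase subunit, fell by 0.38 ± 0.07 in brain dead donor kidneys at 0 h, to 0.768 of the normal level (adjusted p = 0.0155). It was also lower in brain dead than in living donor grafts, by 0.48 ± 0.07 (adjusted p = 0.00497). Its mean was -0.63 ± 0.09 in brain dead donor grafts and -0.15 ± 0.05 with living donors, and -0.53 ± 0.10 in brain dead donor kidneys at 0 h and -0.15 ± 0.07 in normal kidneys (SD, n = 3 each). The call between grafts held in all 12 fits with an array left out, and that at 0 h was lost when brain dead donor kidney replicate 2 or normal kidney replicate 2 or 3 was left out (-0.40, -0.36 and -0.37, adjusted p = 0.0542, 0.0618 and 0.0540). Gapdhs, a glyceraldehyde phosphate dehydrogenase known from sperm, was higher at 0 h by 0.24 ± 0.05 (adjusted p = 0.0233). This call was lost when brain dead donor kidney replicate 2 or 3 or normal kidney replicate 1 or 2 was left out (0.21 to 0.25, highest adjusted p = 0.0915). Pklr, the pyruvate kinase of liver, red cells and proximal tubule, was higher in brain dead than in living donor grafts by 0.33 ± 0.06 (adjusted p = 0.0100). The medians of this list in the 4 comparisons lay between 0.01 and 0.04. At 0 h 1 of 22 was called higher and 1 lower, where 2.27% and 2.39% of all features were. Between grafts 1 was called higher and 1 lower too, where 2.02% and 4.74% of all features were. In the comparisons over time none of its genes passed in limma. There 6 and 3 of 22 had an unadjusted p under 0.05, against 10.9% and 13.1% of all features.

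Lists on the routes that leave glycolysis held single calls at 0 h, where 2.27% of all features were called higher. The list medians there were 0 for pyruvate entry and 0.08 for gluconeogenesis, against 0 over all features. Of 10 measured genes for the entry of pyruvate into mitochondria, Pdp1, a phosphatase that activates pyruvate dehydrogenase, rose at 0 h by 0.38 ± 0.09 (adjusted p = 0.0462), as the mean of 2 probes of which 1 passed by itself (0.58 ± 0.12, adjusted p = 0.0261) and the other did not (0.19 ± 0.09, adjusted p = 0.324). Of 7 gluconeogenesis genes, Slc37a4, the glucose 6-phosphate transporter of the endoplasmic reticulum, rose at 0 h by 0.36 ± 0.09 (adjusted p = 0.0461). Both calls were near the threshold, and each was lost in 8 of the 12 fits with an array left out (highest adjusted p = 0.143 and 0.162). The gluconeogenesis list had a median of -0.19 between brain dead donor grafts and brain dead donor kidneys at 0 h, with 2 of 7 genes above 0 and none at an adjusted or unadjusted p under 0.05 in limma.

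**Figure D4:**
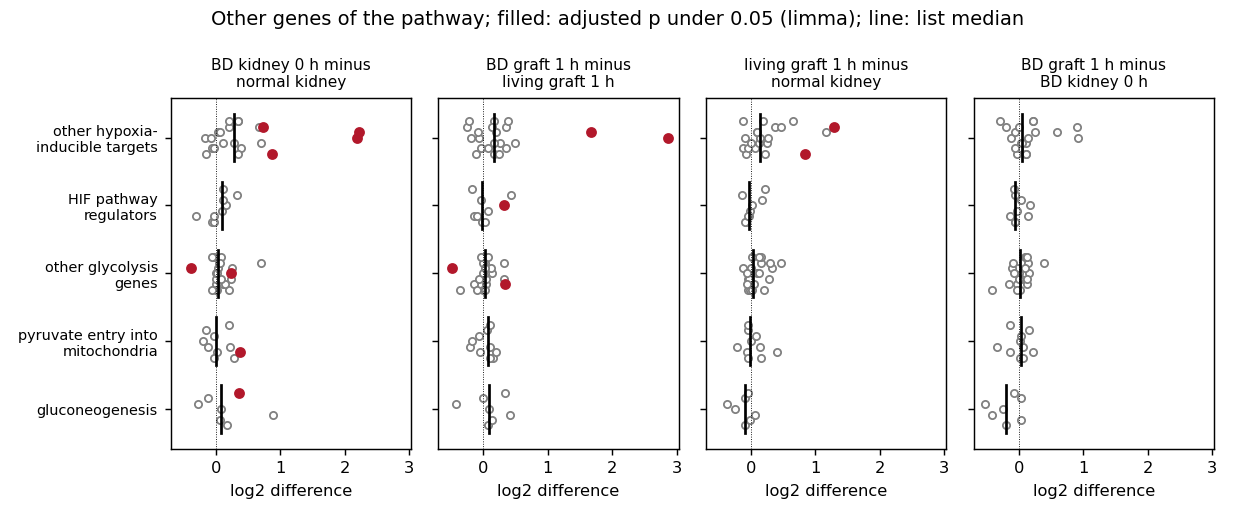
Log2 differences of the other measured genes of the pathway in 4 group comparisons (panels), by list (rows): 21 hypoxia-inducible targets, 9 regulators of the hypoxia-inducible factors, 22 glycolysis genes, 10 genes of pyruvate entry into mitochondria and 7 of gluconeogenesis. Filled points passed in limma at an adjusted p under 0.05 and vertical lines mark list medians; calls above 1 log2 unit occur among the hypoxia-inducible targets, and list medians stay between -0.19 and 0.28.

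Partners of the 4 called members were listed as well. Among 10 measured partners of Ddit4 around mTORC1, Sesn2, a stress-induced inhibitor of mTORC1, rose 2.22-fold at 0 h (log2 1.15 ± 0.12, adjusted p = 0.00250) and was 1.55-fold higher in brain dead than in living donor grafts (0.63 ± 0.12, adjusted p = 0.0150; with graft 27 left out 0.60, adjusted p = 0.0515). Ddit4 passed in neither of these comparisons. Sesn2 was the only call of its list in them, where 2.27% and 2.02% of all features were called higher. The list median was -0.02 in both. Sesn2 averaged 1.48 ± 0.07 in brain dead donor grafts, 0.84 ± 0.21 in those of living donors, 1.59 ± 0.12 in brain dead donor kidneys at 0 h and 0.44 ± 0.18 in normal kidneys.

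Around Mxi1, 7 of 11 listed genes of the Myc and Max network were measured. Myc rose 2.69-fold in living donor grafts over normal kidneys (log2 1.43 ± 0.21, adjusted p = 0.0186), with means of 1.77 ± 0.22 in brain dead donor grafts, 1.27 ± 0.22 in living donor grafts, 0.71 ± 0.45 in brain dead donor kidneys at 0 h and -0.16 ± 0.16 in normal kidneys. The Myc call was lost when any normal kidney, or living donor graft replicate 22 or 24, was left out (1.34 to 1.52, highest adjusted p = 0.106). Mnt, a repressor that also pairs with Max, rose at 0 h by 0.60 ± 0.14 (adjusted p = 0.0371), and Mxd4, a relative of Mxi1, was lower in brain dead than in living donor grafts by 0.51 ± 0.12 (adjusted p = 0.0341). They lost their calls in 7 and 6 of the 12 fits with an array left out (highest adjusted p = 0.142 and 0.105). Myc, Mnt and Mxd4 were each the only call of the list in their comparison. There 0.541% and 2.27% of all features were called higher and 4.74% lower, in turn. The list median was 0.01 in each.

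Of 8 measured clock genes around Bhlhe40, the repressor gene Per1 rose 3.38-fold in living donor grafts over normal kidneys (log2 1.76 ± 0.31, adjusted p = 0.0369). It lost that call in 7 of the 12 fits with an array left out (1.56 to 1.97, highest adjusted p = 0.159). No other gene of the list passed there, where 0.541% of all features were called higher. The list ran from -1.46 to 1.76 in that comparison (median 0.10) and from -1.22 to 0.74 at 0 h (median 0.02), and so held falls too. In each, 3 of 8 had an unadjusted p under 0.05, against 10.9% and 17.7% of all features. Nfil3 of this list did not pass as the mean of probes that disagreed. Its RefSeq probe passed by itself between living donor grafts and normal kidneys (2.21 ± 0.28, limma adjusted p = 0.00799) and at 0 h (1.70 ± 0.28, adjusted p = 0.0127). Its expressed sequence tag probe differed by -0.10 ± 0.46 and -0.22 ± 0.46. None of 9 genes of the Vegf ligands and receptors and none of the other 3 Ndrg genes passed in limma in any of the 4 comparisons, with at most 1 gene of each list at an unadjusted p under 0.05. The 3 Ndrg genes, Ndrg2, Ndrg3 and Ndrg4, had a median of -0.18 at 0 h and of -0.31 between grafts, with no gene above 0 in either.

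Other settings ended some of these calls. Quantile normalization ended those of Egln2 (0.26, adjusted p = 0.105), Pfkm (-0.33, adjusted p = 0.0555), Sesn2 (0.39, adjusted p = 0.169), Mxd4 (-0.45, adjusted p = 0.0569) and Podxl (-0.44, adjusted p = 0.1) between grafts and of Slc37a4 at 0 h (0.36, adjusted p = 0.0587). Array weights ended those of Egln2 (0.29, adjusted p = 0.0776) and Podxl (-0.58, adjusted p = 0.051) between grafts. Fits of the groups compared alone left all differences as they were and ended, between grafts, the calls of Igfbp1, Sesn2, Pklr, Egln2, Mxd4 and Podxl (adjusted p = 0.0526, 0.0596, 0.0627, 0.113, 0.122 and 0.141). At 0 h they ended those of Adm, Pfkm, Gapdhs, Pecam1, Edn1, Pdp1, Mnt and Slc37a4 (adjusted p = 0.0517, 0.0594, 0.0741, 0.0762, 0.0835, 0.0852, 0.0995 and 0.109).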

How the data were processed

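Rat kidney RNA was measured on 12 Agilent arrays with 2 colours. Per the design text, the authors labelled each sample with Cy3 and pooled normal kidney RNA with Cy5, read spots with Agilent Feature Extraction and used GeneSpring for per-spot, per-chip and lowess normalization. The values the authors deposited were taken to be log10 ratios of sample over pool, since they centre on 0 and stop at exactly 2 in both directions (a 100-fold ratio), and were multiplied by 3.322 to give log2 ratios. That scale and the program that wrote the table are not given in the sources used here, and the direction rests on the design text. Without intensities, dim or saturated spots could not be weighed. The number of arrays limits the precision.

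Groups came from sample titles. All arrays carry 1 identical description text, which fits 3 of the titles and was not used. Nothing states that replicates are separate animals, so the spread behind the p-values may be technical. No slide or scan date is given, so no batch could be tested.

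Symbols came from the platform annotation. Probes sharing 1 symbol were averaged, giving 18478 features from 21575 probes. No feature was removed, and none of the 132 values of the members was exactly 0 or at a limit. A limma 3.58.1 model (R 4.3.3) of the 4 group means used all 12 arrays (8 residual degrees of freedom), with Benjamini-Hochberg adjustment over all features and calls at an adjusted p under 0.05. The method was tested on simulated data. Alternatives were single probes, quantile normalization, centred medians, zeros and limits as missing, array weights, robust eBayes, fits of the 2 groups alone, a replicate block and each array left out. The members, gene lists and tests were chosen with earlier results of these data known. All members are named; of each pathway list, genes that passed are named (at most 6 a comparison), as are the 3 marker genes that passed, and for each called member the 3 genes with the highest correlation over 12 arrays. Motifs were searched on both strands with Python 3.11.15.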

Additional observations from a re-analysis of the deposited data

How the results depend on the processing

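Of 950 alternative values for the 10 genes in 5 comparisons, 877 kept direction and side of the threshold, 32 lost a call, 4 gained one, 37 uncalled values changed sign and no called value did. Members called at 0 h numbered 3, and 1 to 3 with single arrays left out. Between grafts 1 was called, 0 to 1 with arrays left out and 0 after quantile normalization. Between living donor grafts and normal kidneys 1 was called, 1 to 2 with arrays left out, and 2 after quantile normalization or in a fit of the 2 groups alone, with Bhlhe40 as the second. Between brain dead donor grafts and kidneys 1 was called, 0 to 1 with arrays left out, and 0 under the same 2 alternatives. The interaction had 0 called members in every fit.

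Over all features, 860 passed at 0 h, 2852 with array weights, 350 in a fit of the 2 groups alone and 165 to 1186 with arrays left out. Between grafts 1249 passed, 310 after quantile normalization, 427 with the 2 groups alone and 557 to 1526 with arrays left out. Between living donor grafts and normal kidneys 135 passed, 483 with array weights and 33 to 210 with arrays left out. Between brain dead donor grafts and kidneys 10 passed, 68 with array weights, 0 after quantile normalization or with the 2 groups alone, and 0 to 14 with arrays left out. For the interaction 0 passed in limma, 3 with array weights and 0 to 4 with arrays left out. The cause of these shifts was not tested. Fits with an array left out also had fewer samples, and their counts moved both up and down.

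With the replicate number as a block in the fit of brain dead donor and normal kidneys alone, 0 members and 2 of all features passed, and Bhlhe40, Ndrg1 and Mxi1 each had an adjusted p = 0.122. Same-numbered arrays deviated from their group means with correlations of 0.328, 0.100 and 0.0337, and replicates 2 and 3 of the brain dead donor kidneys correlated better with another number, so the numbers are not shown to pair the arrays. Using only the bases before the start or the whole window left 36.7% and 41.6% of all promoters with ACGTG or GCGTG, and Ldha with 4 and 6. Signal over background could not be examined, so the precision of dim probes is not known.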
